A study of Homo sapiens with 16 samples.

Results

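The DNA replication and E2F target genes described here were 55 named genes, all of them among the 23228 gene rows of the count files, and all 55 passed the low-count filter that kept 13948 genes for testing. They were chosen by name from textbook roles: 15 genes of origin licensing (ORC1 to ORC6, CDC6, CDT1, GMNN and MCM2 to MCM7), 8 of origin firing and the active helicase, 20 of the replication fork, 4 of deoxynucleotide supply, and 8 E2F, cyclin E and UHRF1 genes. RNA sequencing counts came from 16 libraries, all made from MDA-MB-231, an established human breast cancer line that grows without oestrogen receptor. The summed reads of the 55 genes took 0.564 to 0.754% of the gene counts of a library.

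Replication origins are licensed before S phase, when the origin recognition complex (ORC), CDC6 and CDT1 load the MCM2-7 helicase onto DNA, and geminin (GMNN) blocks CDT1 once S phase has begun. The kinase CDC7 with DBF4, together with CDC45 and the GINS complex, then turns the loaded helicase into a moving one, and polymerases, clamp loader and clamp copy the strands behind it. E2F transcription factors, held back by RB and released by cyclin-dependent kinases, drive many of these genes late in G1, and E2F7 and E2F8 repress them again.

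The series compared 4 treatments, each sampled at 8 h and 24 h in 2 libraries. Combination cells were pre-incubated with sorafenib, a multikinase inhibitor, at 1 µM for 12 h and then received MMS; MMS cells received the DNA-methylating agent methyl methanesulfonate alone; sorafenib cells received 1 µM sorafenib alone; DMSO cells received the solvent. The series text gives the MMS dose as 40 µg/mL while the labels of single samples give 40 µM, and the difference could not be settled. Times in the combination counted from the MMS addition, so sorafenib exposure was 12 h longer there than in the sorafenib group. The series description speaks of 2 independent experiments, the model is 1 cell line, and every comparison with DMSO at a given time used the same 2 DMSO libraries. Adjusted p-values therefore measure the spread between these libraries.

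Between 16774156 and 26448212 reads were counted in genes per library, with a median of 20348720. Among the mesenchymal markers of the line, VIM stood at 1480 to 2480 counts per 1000000 gene counts (CPM) and MSN at 936 to 1410 CPM. ZEB1 was lower, at 56.8 to 116 CPM, as was TGFBI, at 22.5 to 122 CPM. Oestrogen and progesterone receptor genes were near 0 (ESR1 0 to 0.224 CPM, PGR 0.151 to 0.674 CPM), as was the fibroblast collagen COL1A2 (0 to 0.457 CPM). Keratin genes of luminal cells were present, KRT8 at 177 to 350 CPM, KRT18 at 148 to 268 CPM and KRT19 at 94.7 to 302 CPM. ERBB2, also on the luminal list, stood at 56.9 to 100 CPM. The 6 markers of fibroblasts and endothelium summed to 15.1 to 23.3 CPM in combination or MMS libraries and to 26.8 to 43.7 CPM in sorafenib or DMSO libraries, and their part in the results was not tested.

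Promoter sequences are shown for 6 members because their mRNAs went different ways under MMS although they belong to the same machinery. MCM2, MCM6 and MCM7 encode subunits of one helicase ring, of which MCM2 rose and the other 2 fell at 24 h, CDC6 encodes a loader of that ring, and ORC6 and RRM2 had the largest rises at 8 h. The sequences come from RefSeq (GRCh38.p14) and run 5′ to 3′ on the gene's strand, from 250 bases before the annotated start to 30 bases after it. Capitals mark the E2F site letters TTTCCCGC or TTTGGCGC or TTTGCCGC or TTTCGCGC, read on either strand, and neighbouring matches may overlap. The windows are chr3:127598161-127598440 (plus strand) for MCM2, chr2:135876414-135876693 (minus) for MCM6, chr7:100101368-100101647 (minus) for MCM7, chr17:40287629-40287908 (plus) for CDC6, chr16:46689409-46689688 (plus) for ORC6 and chr2:10122489-10122768 (plus) for RRM2.
MCM2: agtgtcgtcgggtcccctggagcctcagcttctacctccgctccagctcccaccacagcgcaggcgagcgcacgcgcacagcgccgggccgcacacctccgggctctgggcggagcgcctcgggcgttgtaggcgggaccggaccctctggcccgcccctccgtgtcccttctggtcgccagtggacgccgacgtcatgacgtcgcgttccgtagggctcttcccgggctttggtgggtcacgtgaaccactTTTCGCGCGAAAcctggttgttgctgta
MCM6: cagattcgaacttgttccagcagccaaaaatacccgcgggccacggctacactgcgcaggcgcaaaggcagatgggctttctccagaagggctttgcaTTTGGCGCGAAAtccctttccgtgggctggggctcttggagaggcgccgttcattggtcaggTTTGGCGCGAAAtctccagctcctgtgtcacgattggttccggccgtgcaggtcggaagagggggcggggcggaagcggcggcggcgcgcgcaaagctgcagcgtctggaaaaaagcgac
MCM7: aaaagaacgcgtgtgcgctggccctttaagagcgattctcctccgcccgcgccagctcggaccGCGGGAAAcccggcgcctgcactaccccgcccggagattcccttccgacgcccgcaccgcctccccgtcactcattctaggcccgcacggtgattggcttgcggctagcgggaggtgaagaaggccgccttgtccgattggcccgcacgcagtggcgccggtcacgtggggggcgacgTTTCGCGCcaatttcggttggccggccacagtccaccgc
CDC6: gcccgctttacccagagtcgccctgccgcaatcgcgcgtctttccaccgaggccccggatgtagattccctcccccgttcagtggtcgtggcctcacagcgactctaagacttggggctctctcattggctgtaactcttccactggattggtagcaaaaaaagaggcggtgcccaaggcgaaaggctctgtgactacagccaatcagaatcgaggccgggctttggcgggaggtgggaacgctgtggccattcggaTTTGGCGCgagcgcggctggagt
ORC6: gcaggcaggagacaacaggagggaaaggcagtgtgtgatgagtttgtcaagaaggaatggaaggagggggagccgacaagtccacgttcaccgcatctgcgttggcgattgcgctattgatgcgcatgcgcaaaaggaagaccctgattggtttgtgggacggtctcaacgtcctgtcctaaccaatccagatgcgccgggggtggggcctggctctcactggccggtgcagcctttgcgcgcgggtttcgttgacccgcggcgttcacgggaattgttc
RRM2: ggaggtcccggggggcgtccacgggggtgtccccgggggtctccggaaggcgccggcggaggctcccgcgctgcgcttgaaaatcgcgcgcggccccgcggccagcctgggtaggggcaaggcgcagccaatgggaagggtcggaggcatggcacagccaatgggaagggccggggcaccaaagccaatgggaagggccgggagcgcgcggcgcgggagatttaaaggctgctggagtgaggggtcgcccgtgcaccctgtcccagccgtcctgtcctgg

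The MCM6 window held 2 separate runs of overlapping matches, the MCM2 window 1 run that began at base 3, counting the start as base 1, the CDC6 window 1 match, the MCM7 window 2 matches, and the ORC6 and RRM2 windows none of these letters. Over the whole search window, from 250 bases before to 50 after the start, 22 of the 47 members with a promoter in the RefSeq table held a match (46.8%), against 908 of all 27305 promoters (3.33%). Among promoters of genes with at least 1 read, 562 of 12125 held one (4.64%). By role the share was 7 of 13 licensing genes, 3 of 7 firing genes, 7 of 17 fork genes, 1 of 4 nucleotide genes and 4 of 6 E2F and cyclin E genes. CCNE2, E2F8, GINS4, MCM4, MCM5, POLD3, RPA2 and RPA3 had no promoter entry and are not among the 47. The CCAAT box (CCAAT on either strand) was in 26 of the 47, against 35.7% of all promoters, and the CHR letters TTTGAA on either strand were in 3 of the 47, against 15.4% of all promoters. Of promoters of genes with at least 1 read, 36.1% held the CCAAT box and 11.1% the CHR letters. A match describes letters and does not show that a factor binds there.

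With MMS alone, the share of members called stood near that of all genes at 8 h and above it at 24 h. At 8 h the licensing factors ORC6, CDC6 and CDT1, the GINS subunit GINS3, the single-strand binding subunit RPA2, the reductase subunit RRM2 and the cyclin CCNE2 had risen, while UHRF1, ORC2 and MCM7 had fallen. By 24 h these 7 rises were still called, 11 fork genes were higher, and MCM5 and MCM6 had fallen with MCM7. Of the fork rises, only those of RPA2, FEN1 and RFC3 were kept whichever library was left out. In edgeR's quasi-likelihood test, 9 members rose and 6 fell at 8 h (Benjamini-Hochberg adjusted p under 0.05), a share of 27.3% that stood near the 26.5% of all 13948 genes called (14.5% higher and 12% lower). At 24 h 26 rose and 5 fell, or 56.4% of the members against 31.5% of all genes (15.2% higher and 16.3% lower). The replicate block makes the 2 ways in which sample titles begin, taken to mark the 2 experiments, a term of the model. With it the calls were 22 at 8 h (43.3% of all genes) and 36 at 24 h (48.3% of all genes). The block added ORC3, MCM2, CDC7, POLE and RFC1 as higher and PRIM1 and PCNA as lower at 8 h (adjusted p = 0.00274 to 0.0497), and CDC45, GINS2, RFC2 and E2F8 as higher and POLA1 as lower at 24 h (adjusted p = 0.0014 to 0.0444). The 31 calls at 24 h became 20 without MMS replicate 1 and 18 without DMSO replicate 2. Calls over all genes fell in both of these fits too. The median log2 change of the members was 0.03 at 8 h and 0.24 at 24 h, against -0.004 and 0.003 over all genes tested. In these bulk libraries a change in the share of cells in S phase and a change in RNA per cell cannot be told apart.

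Of the 9 members higher at 8 h, 8 were higher at 24 h too, which is 8 of the 26 higher at that time: CCNE2, CDC6, CDT1, GINS3, ORC5, ORC6, RPA2 and RRM2. E2F2 and MCM7 were lower at both times, and ORC2 and PRIM2 were lower at 8 h and higher at 24 h. By role the calls at 8 h were 4 higher and 3 lower of 15 licensing genes, 1 higher of 8 firing genes, 1 higher and 1 lower of 20 fork genes, 1 higher of 4 nucleotide genes, and 2 higher and 2 lower of 8 E2F and cyclin E genes. At 24 h they were 8 higher and 3 lower in licensing, 3 higher in firing, 11 higher and 1 lower at the fork, 2 higher in nucleotide supply, and 2 higher and 1 lower among the E2F and cyclin E genes. The fork genes, 20 of the 55 members, thus held 11 of the 26 rises at 24 h and 1 of the 9 at 8 h. Over all genes tested, 15.2% were higher at 24 h and 14.5% at 8 h. A direct test of the 24 h effect minus the 8 h effect called only PRIM1 and PRIM2 among the fork genes. All 15 members called at 8 h and all 31 called at 24 h had the same sign in each of the 2 experiments, as marked by the title starts.

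**Figure D1:**
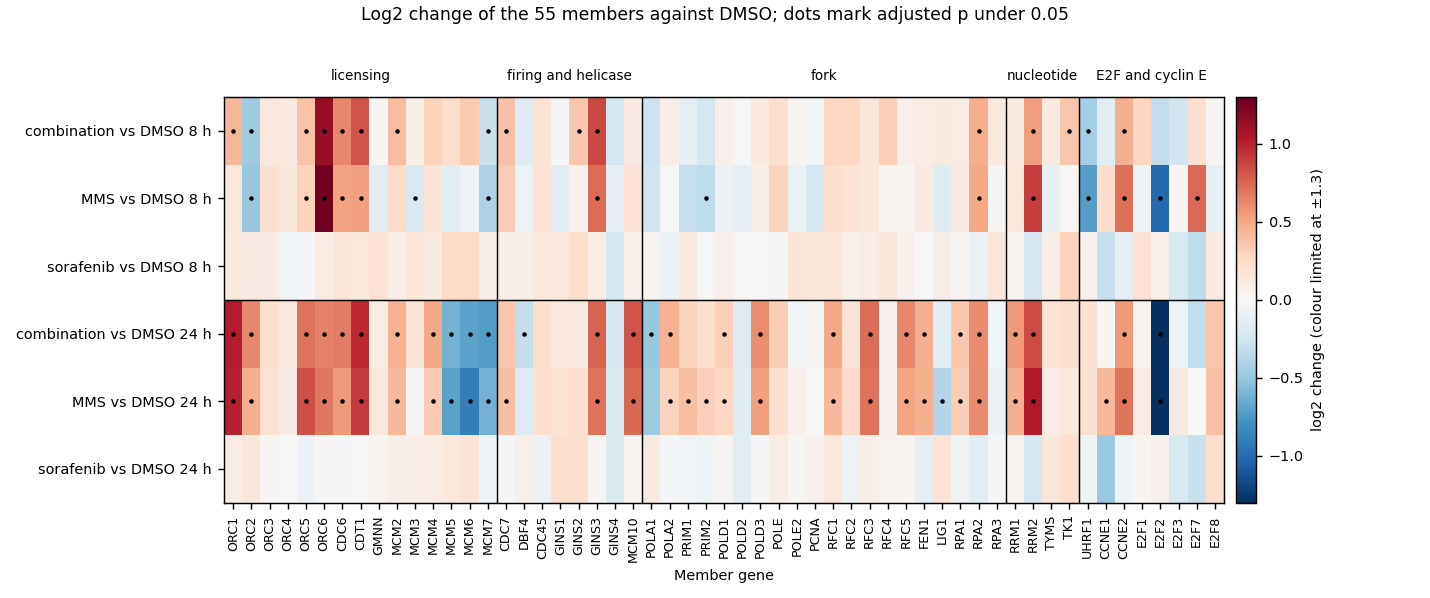
Heat map of the log2 change of each of the 55 members (columns, by role) against DMSO, for combination, MMS and sorafenib at 8 h and at 24 h (rows); colours stop at ±1.3 and dots mark edgeR adjusted p under 0.05. The sorafenib rows carry no dot, the fork columns carry few dots at 8 h and many at 24 h, and MCM5, MCM6 and MCM7 are blue with a dot at 24 h with combination or MMS, MCM7 at 8 h as well.

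The origin recognition complex did not move as a unit. ORC6, the smallest subunit and the one that also has a role at division, stood at 88.0 and 86.2 CPM in MMS libraries at 8 h, against 36.8 and 38.0 CPM in DMSO. The MMS values lay far above both DMSO values, a 2.39-fold difference (log2 change 1.26 ± 0.09 SE, n = 2 per group, edgeR adjusted p = 3.35e-06). At 24 h ORC6 had 59.2 and 53.6 CPM with MMS, against 35.8 and 32.0 CPM with DMSO (0.68 ± 0.09, adjusted p = 0.000295), a rise that differed from that at 8 h in the test between times. ORC1, the large ATPase subunit, stood at 47.1 and 39.2 CPM with MMS at 8 h, against 41.7 and 38.8 CPM with DMSO (0.14 ± 0.13), and those groups overlapped. At 24 h ORC1 reached 71.4 and 71.0 CPM with MMS, against 38.7 and 29.8 CPM with DMSO, a 2-fold rise (1.00 ± 0.14, edgeR adjusted p = 0.000279). ORC1 was thus among the later rises, and the groups were well apart at that time.

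ORC2, which holds the core of the complex together, changed direction. It had 27.4 and 23.2 CPM with MMS at 8 h, against 37.3 and 36.0 CPM with DMSO (log2 change -0.49 ± 0.13, edgeR adjusted p = 0.0134). In the 24 h libraries ORC2 had 44.4 and 44.7 CPM with MMS, against 35.3 and 27.0 CPM with DMSO (0.47 ± 0.13, adjusted p = 0.0159). Groups did not overlap at either time. The fall was not called without DMSO replicate 1 or without MMS replicate 2 of 8 h (log2 -0.63 to -0.40 over the 4 libraries left out in turn, highest adjusted p = 0.116). The rise was not called without MMS replicate 1 or DMSO replicate 2 of 24 h (0.29 to 0.68, highest adjusted p = 0.141). ORC5, another core subunit, had 57.5 and 52.1 CPM with MMS at 24 h, against 31.4 and 27.9 CPM with DMSO (0.83 ± 0.10, adjusted p = 0.000151). Its smaller rise at 8 h (0.30 ± 0.10) was lost whichever of the 4 libraries was left out, with the highest edgeR adjusted p at 0.317. ORC3 and ORC4 had log2 changes of 0.10 to 0.22 and were not called without the block.

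CDC6, the ATPase that joins ORC to load the helicase, stood at 294 and 270 CPM with MMS at 8 h, against 200 and 202 CPM with DMSO. The 24 h values were 271 and 260 CPM with MMS, against 179 and 170 CPM with DMSO. The rise was of like size at both times (log2 0.53 ± 0.07 and 0.55 ± 0.07, edgeR adjusted p = 0.000225 and 0.000234), and no values overlapped. CDT1, which brings the MCM ring to the origin and is destroyed in S phase, had 64.2 and 70.6 CPM with MMS at 8 h, against 51.3 and 44.4 CPM with DMSO (0.53 ± 0.12, adjusted p = 0.00475). At 24 h CDT1 had 84.0 and 80.9 CPM with MMS, against 44.4 and 40.6 CPM with DMSO, 1.87-fold higher (0.90 ± 0.12, edgeR adjusted p = 0.000212). The 8 h call of CDT1 was lost without MMS replicate 2 or DMSO replicate 2 (log2 0.41 to 0.64, highest adjusted p = 0.0591), while that at 24 h was kept without any 1 library. The message of its inhibitor geminin (GMNN) was not called at either time (-0.15 ± 0.09 and 0.14 ± 0.09). Counted within each library, there were 66.7 and 54.9 CDT1 reads per 100 GMNN reads with MMS at 24 h, against 38.1 and 33.2 with DMSO.

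The 6 subunits of the MCM2-7 ring, which is assembled with 1 copy of each, parted company at 24 h. MCM6 had 53.8 and 53.1 CPM with MMS, against 104 and 87.9 CPM with DMSO, or 0.536-fold (log2 change -0.90 ± 0.13, edgeR adjusted p = 0.000363). MCM5 had 64.5 and 57.0 CPM with MMS, against 95.3 and 94.2 CPM with DMSO (-0.69 ± 0.12, adjusted p = 0.00097). MCM7 had 220 and 246 CPM with MMS, against 333 and 353 CPM with DMSO (-0.61 ± 0.09, edgeR adjusted p = 0.000389). None of these groups overlapped, and the 3 calls were kept whichever library was left out. MCM2 instead had 219 and 193 CPM with MMS at 24 h, against 160 and 135 CPM with DMSO (0.43 ± 0.13, adjusted p = 0.0288), and MCM4 rose by a log2 change of 0.34 ± 0.11 (edgeR adjusted p = 0.0317). Both rises were lost without MMS replicate 1 or DMSO replicate 2 of 24 h, MCM2 at 0.32 to 0.56 and MCM4 at 0.20 to 0.50 over the fits without 1 library (highest adjusted p = 0.199 and 0.241). MCM3 was not called at that time (0.01 ± 0.07).

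Ratios inside a library do not depend on its scaling. With MMS at 24 h there were 24.6 and 27.6 MCM6 reads per 100 MCM2 reads, against 65.1 and 65.0 with DMSO. MCM5 gave 29.5 and 29.6 reads per 100 MCM2 reads with MMS, against 59.4 and 69.7 with DMSO. MCM7 gave 100 and 127 with MMS, against 208 and 261 with DMSO. MCM3, whose own level was not called, gave 197 and 225 with MMS, against 260 and 302 with DMSO. Each of these 4 ratios was lower in both MMS libraries than in both DMSO libraries, and the higher MCM2 count enters each of them. MCM4 gave 154 and 167 with MMS, against 173 and 167 with DMSO. MCM7 was also lower at 8 h, at 243 and 284 CPM with MMS, against 363 and 356 CPM with DMSO (log2 change -0.41 ± 0.09, edgeR adjusted p = 0.00418). That call was lost without MMS replicate 1 (log2 -0.55 to -0.31 over the fits without 1 library, highest adjusted p = 0.0545). MCM3 fell slightly at 8 h (-0.20 ± 0.07), a call lost whichever of the 4 libraries was left out (highest edgeR adjusted p = 0.131), and MCM5 and MCM6 were not called (-0.14 ± 0.11 and -0.04 ± 0.12).

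**Figure D2:**
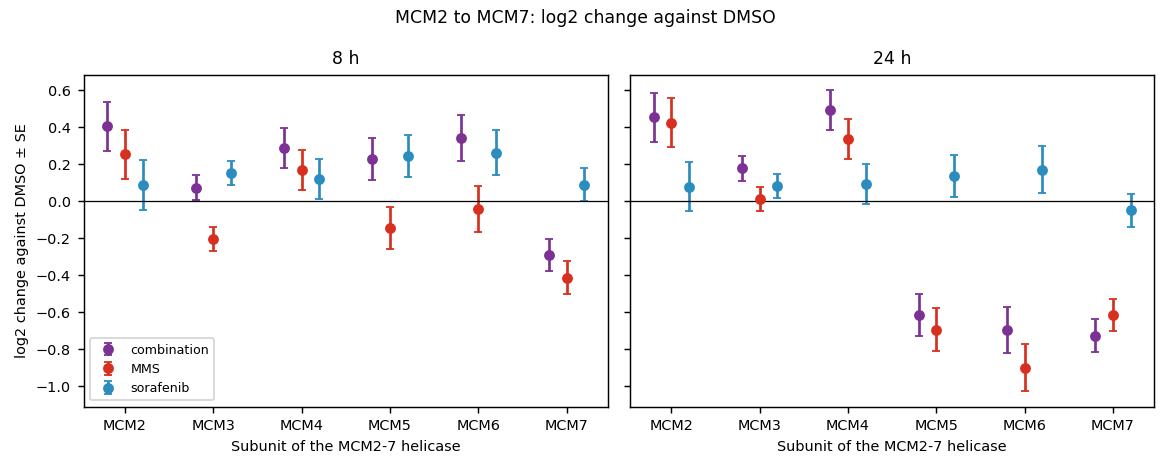
Log2 change against DMSO ± SE for MCM2 to MCM7 at 8 h (left) and 24 h (right), with combination, MMS and sorafenib side by side (n = 2 libraries per group). At 24 h MCM5, MCM6 and MCM7 lie between -0.61 and -0.90 with combination or MMS, MCM2 and MCM4 lie between 0.34 and 0.50, and no sorafenib point is past the threshold.

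Among the firing genes GINS3 alone was called at 8 h. This GINS subunit had 40.7 and 41.1 CPM with MMS, against 25.2 and 25.7 CPM with DMSO (log2 change 0.72 ± 0.10, edgeR adjusted p = 0.000255), and 35.8 and 38.7 CPM with MMS at 24 h, against 22.5 and 21.6 CPM with DMSO (0.70 ± 0.10, adjusted p = 0.000434). Its 3 partners GINS1, GINS2 and GINS4, which form the same tetramer, were not called without the block, with log2 changes of -0.18 to 0.22. MCM10, a scaffold that helps the helicase to start, had 113 and 126 CPM with MMS at 8 h, against 99.4 and 115 CPM with DMSO. MCM10 then had 136 and 163 CPM with MMS at 24 h, against 86.6 and 85.2 CPM with DMSO (0.75 ± 0.14, edgeR adjusted p = 0.00225), where the groups stood apart. CDC7, the firing kinase, had 67.3 and 59.8 CPM with MMS at 8 h, against 48.4 and 55.2 CPM with DMSO, where it was not called. At 24 h CDC7 had 75.2 and 66.1 CPM with MMS, against 55.6 and 48.0 CPM with DMSO (0.40 ± 0.13, edgeR adjusted p = 0.0351). That call was lost without MMS replicate 1 or DMSO replicate 2 (0.30 to 0.53, highest adjusted p = 0.22). Its activator DBF4 (-0.17 ± 0.10) and the helicase subunit CDC45 (0.22 ± 0.15) were not called.

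At the fork RPA2, the middle subunit of the RPA complex that coats single-stranded DNA, was the 1 gene called higher at 8 h. It had 143 and 133 CPM with MMS, against 104 and 95.7 CPM with DMSO (log2 change 0.50 ± 0.10, edgeR adjusted p = 0.00256). Later, at 24 h, RPA2 had 161 and 151 CPM with MMS, against 106 and 90.8 CPM with DMSO (0.62 ± 0.10, adjusted p = 0.000753). No MMS value overlapped a DMSO value at either time. The large subunit RPA1 rose less at 24 h (0.32 ± 0.11, edgeR adjusted p = 0.0492), a call lost without MMS replicate 1, DMSO replicate 1 or DMSO replicate 2 (highest adjusted p = 0.25), and RPA3 was not called (-0.08 ± 0.21).

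The clamp loader, which places PCNA on DNA, showed 3 of 5 subunits higher at 24 h. RFC3 had 122 and 113 CPM with MMS, against 80.6 and 58.7 CPM with DMSO (log2 change 0.71 ± 0.15, edgeR adjusted p = 0.00411). RFC5 (0.51 ± 0.14) and RFC1 (0.42 ± 0.12) rose too, both lost without MMS replicate 1 or DMSO replicate 2 (highest edgeR adjusted p = 0.15 and 0.161). RFC2 (0.24 ± 0.10), RFC4 (0.06 ± 0.13) and PCNA itself (0.01 ± 0.14) were not called. FEN1, the flap nuclease that trims Okazaki fragments, had 322 and 304 CPM with MMS at 24 h, against 222 and 215 CPM with DMSO (0.47 ± 0.09, edgeR adjusted p = 0.00188), with no overlap. LIG1, the ligase that seals those fragments, fell at the same time (-0.38 ± 0.10, adjusted p = 0.0132), but that call was lost whichever of the 4 libraries was left out (-0.38 to -0.34, highest adjusted p = 0.114).

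Primase and polymerases made up the rest. PRIM2, the large primase subunit, had 47.7 and 47.0 CPM with MMS at 8 h, against 59.7 and 62.4 CPM with DMSO (log2 change -0.33 ± 0.09, edgeR adjusted p = 0.0161). At 24 h PRIM2 had 74.9 and 82.3 CPM with MMS, against 64.3 and 58.4 CPM with DMSO (0.30 ± 0.09, adjusted p = 0.0197). The groups stood apart both times, in opposite directions; the fall was lost whichever library was left out (-0.36 to -0.32, highest edgeR adjusted p = 0.074), and the rise without MMS replicate 2 or DMSO replicate 2 (0.25 to 0.38, highest adjusted p = 0.115). The catalytic subunit PRIM1 had 29.3 and 23.4 CPM with MMS at 8 h, against 32.5 and 34.3 CPM with DMSO, which was not called (-0.30 ± 0.13). At 24 h PRIM1 had 39.5 and 40.2 CPM with MMS, against 33.1 and 25.6 CPM with DMSO (0.39 ± 0.13, edgeR adjusted p = 0.0392), a call lost in 3 of the 4 fits without a library, all but that without DMSO replicate 1 (highest adjusted p = 0.279). Of the polymerase genes POLD3 (0.53 ± 0.14), POLA2 (0.30 ± 0.10) and POLD1 (0.27 ± 0.08) rose at 24 h. POLD3 was lost without MMS replicate 1 or DMSO replicate 2 (highest edgeR adjusted p = 0.124), POLA2 whichever library was left out (highest 0.121), and POLD1 in all but the fit without MMS replicate 1 (highest 0.071). The catalytic POLA1 (-0.47 ± 0.17) and POLE (0.19 ± 0.12), with POLE2 and POLD2, were not called in that comparison.

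RRM2, the regulated small subunit of ribonucleotide reductase, which makes deoxynucleotides, had the smallest p of all members at 24 h. It stood at 856 and 831 CPM with MMS at 8 h, against 457 and 470 CPM with DMSO, a 1.87-fold rise (log2 change 0.90 ± 0.08, edgeR adjusted p = 1.2e-05). By 24 h RRM2 stood at 763 and 746 CPM with MMS, against 362 and 350 CPM with DMSO, 2.04-fold (1.03 ± 0.08, adjusted p = 1.25e-05). The lowest MMS value was far above the highest DMSO value at both times. The large subunit RRM1 had 418 and 370 CPM with MMS at 8 h, against 382 and 352 CPM with DMSO, where the groups overlapped. At 24 h RRM1 had 487 and 485 CPM with MMS, against 367 and 315 CPM with DMSO (0.46 ± 0.10, edgeR adjusted p = 0.00397). Thymidylate synthase TYMS, at 78.8 and 73.3 CPM with MMS at 8 h against 86.4 and 80.8 CPM with DMSO, was not called at either time (-0.10 ± 0.10 and 0.09 ± 0.10). TYMS overlaps the antisense gene ENOSF1, and without a stated strand setting its reads are uncertain. Thymidine kinase TK1, at 196 and 214 CPM with MMS at 24 h against 169 and 190 CPM with DMSO, was not called either (0.01 ± 0.11 and 0.14 ± 0.11).

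**Figure D3:**
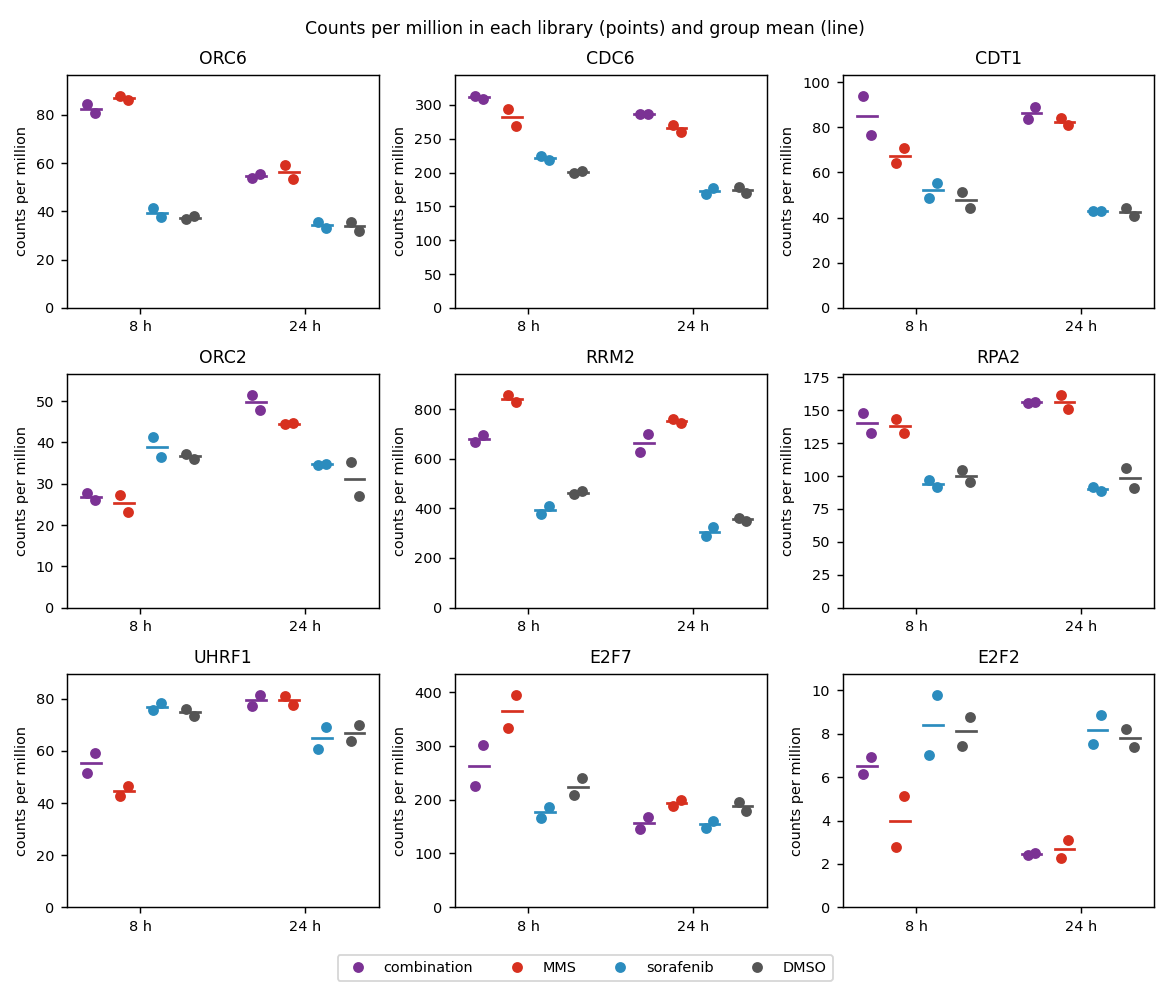
CPM of ORC6, CDC6, CDT1, ORC2, RRM2, RPA2, UHRF1, E2F7 and E2F2 in each of the 16 libraries (points) with the group mean (line), by treatment and time; each axis starts at 0. ORC6, CDC6, RRM2 and RPA2 stand higher with combination or MMS at both times, ORC2 lies below DMSO at 8 h and above it at 24 h, and E2F2 lies at 3.11 CPM or less with combination or MMS at 24 h.

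The E2F and cyclin E genes went in several directions. UHRF1, an E2F target that guides maintenance DNA methylation, had 42.8 and 46.4 CPM with MMS at 8 h, against 76.1 and 73.6 CPM with DMSO, or 0.611-fold (log2 change -0.71 ± 0.10, edgeR adjusted p = 0.000237). Its 24 h levels were 81.2 and 77.7 CPM with MMS, against 63.8 and 70.0 CPM with DMSO (0.20 ± 0.10), which was not called. E2F7, a repressor of E2F targets, had 334 and 394 CPM with MMS at 8 h, against 209 and 240 CPM with DMSO (0.74 ± 0.13, edgeR adjusted p = 0.00156). Its rise was not seen at 24 h, where it had 188 and 200 CPM with MMS, against 196 and 180 CPM with DMSO (-0.01 ± 0.14). Both genes thus stood apart from DMSO at 8 h and close to it at 24 h.

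E2F2, an activator of the family, was the lowest member of the set, with 39 to 211 reads per library. It had 2.76 and 5.15 CPM with MMS at 8 h, against 7.45 and 8.77 CPM with DMSO (log2 change -1.01 ± 0.27, edgeR adjusted p = 0.0141). At 24 h it had 2.26 and 3.11 CPM with MMS, against 8.21 and 7.38 CPM with DMSO, 0.333-fold (-1.59 ± 0.28, adjusted p = 0.00122). All MMS values lay below all DMSO values, but the 8 h call was lost without MMS replicate 1 or DMSO replicate 2 (-1.54 to -0.62, highest edgeR adjusted p = 0.124). The cyclin CCNE2, which with CDK2 drives entry into S phase, had 118 and 133 CPM with MMS at 8 h, against 69.2 and 88.0 CPM with DMSO (0.72 ± 0.11, edgeR adjusted p = 0.000601). The 24 h levels of CCNE2 were 90.8 and 98.5 CPM with MMS, against 58.8 and 53.3 CPM with DMSO (0.70 ± 0.12, adjusted p = 0.000872). CCNE1, the other cyclin E, had 20.5 and 19.6 CPM with MMS at 8 h, against 16.8 and 18.0 CPM with DMSO, where it was not called. At 24 h CCNE1 had 19.6 and 21.6 CPM with MMS, against 15.2 and 14.2 CPM with DMSO (0.43 ± 0.11, edgeR adjusted p = 0.0117), a call lost without MMS replicate 2 or DMSO replicate 2 (highest adjusted p = 0.0644). E2F1, E2F3 and E2F8 had log2 changes of -0.09 to 0.38 and were not called without the block.

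The test of the MMS effect at 24 h minus that at 8 h asked which genes responded differently at the 2 times. It called 9 members, 6 with a higher and 3 with a lower effect at 24 h, or 16.4% against 9.13% of all genes. With the replicate block it called 19, against 25.5% of all genes. The largest positive differences were ORC2 (0.96 ± 0.18, edgeR adjusted p = 0.00753), UHRF1 (0.91 ± 0.14, adjusted p = 0.00227) and ORC1 (0.865 ± 0.19, adjusted p = 0.0158). PRIM1, PRIM2 and ORC5 followed, with differences of 0.54 to 0.69. The negative ones were MCM6 (-0.86 ± 0.18, edgeR adjusted p = 0.0114), E2F7 (-0.75 ± 0.19, adjusted p = 0.0299) and ORC6 (-0.57 ± 0.13, adjusted p = 0.0182). For CDC6, GINS3, CCNE2 and RRM2 the difference between times was small and not called (-0.02 to 0.13). ORC2, PRIM2 and UHRF1 kept their calls whichever of the 8 libraries was left out. ORC1 was lost without DMSO replicate 1 of 8 h, MMS replicate 2 of 8 h or MMS replicate 1 of 24 h (highest edgeR adjusted p = 0.0643), and MCM6 without DMSO replicate 1 of 8 h or either MMS library of 24 h (highest 0.0596). ORC5 and E2F7 were lost in 5 of the 8 fits (highest edgeR adjusted p = 0.11 and 0.132) and ORC6 and PRIM1 in 6 (highest 0.111 and 0.121). The 9 calls became 3 without DMSO replicate 1 of 8 h, 4 without MMS replicate 2 of 8 h, 4 without MMS replicate 1 of 24 h and 5 without MMS replicate 2 of 24 h.

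**Figure D4:**
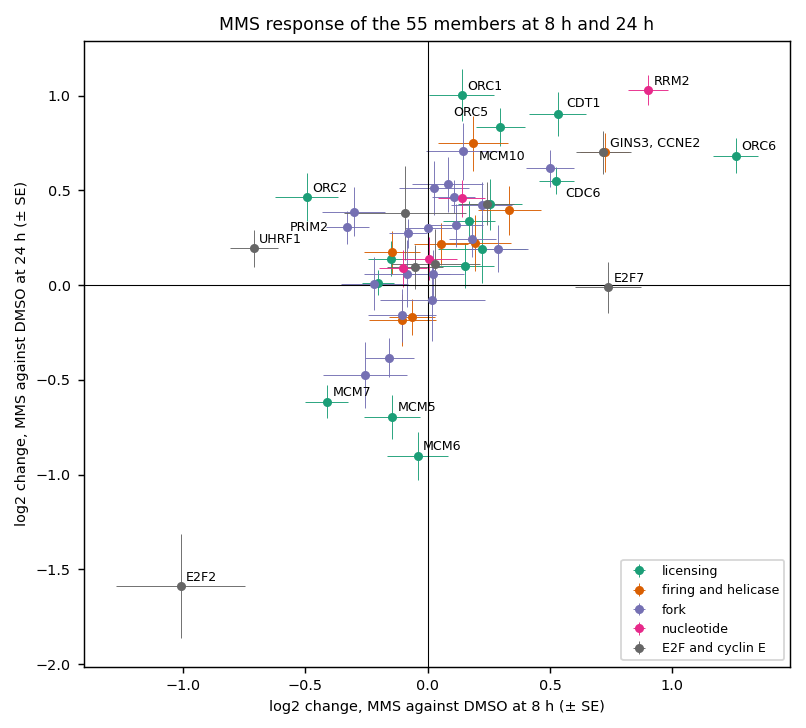
Log2 change of each of the 55 members with MMS against DMSO at 8 h (horizontal) and at 24 h (vertical), with SE bars, coloured by role (n = 2 libraries per group). RRM2, ORC6, CDT1, CDC6 and GINS3 lie in the upper right, MCM7 and E2F2 in the lower left, ORC2 and PRIM2 in the upper left, and most fork genes spread upward from near 0 at 8 h.

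Cells that had sorafenib before MMS showed a similar list of calls against DMSO. The combination at 8 h had 13 members higher and 3 lower in edgeR, against 24.3% of all genes called (12.5% higher and 11.8% lower), and the fit with replicate block called 26 members, against 39.5% of all genes. The 16 calls became 9 without DMSO replicate 1, 8 without DMSO replicate 2 and 7 without combination replicate 1. Calls over all genes fell in each of these fits too. At 24 h the combination had 22 higher and 6 lower, or 50.9%, against 33.4% of all genes (16.2% higher and 17.2% lower). The median log2 change of the members was 0.13 at 8 h and 0.21 at 24 h, against 0.03 and 0.008 over all genes. Because the combination and MMS were set against the same DMSO libraries, their values stand side by side and their likeness is no separate evidence.

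ORC6 had 84.4 and 80.6 CPM with the combination at 8 h, against 36.8 and 38.0 CPM with DMSO (log2 change 1.13 ± 0.09, edgeR adjusted p = 7.78e-06). CDC6 had 314 and 309 CPM with the combination at 8 h, against 200 and 202 CPM with DMSO (0.62 ± 0.07, adjusted p = 8.94e-05). GINS3 had 43.6 and 49.5 CPM, against 25.2 and 25.7 CPM with DMSO (0.86 ± 0.10, edgeR adjusted p = 9.66e-05). These 3 had the smallest p of the members in that comparison. At 24 h the smallest belonged to RRM2, with 628 and 701 CPM in the combination against 362 and 350 CPM in DMSO (0.85 ± 0.08, edgeR adjusted p = 2.55e-05). CDC6 had 286 and 287 CPM with the combination at 24 h, against 179 and 170 CPM with DMSO (0.66 ± 0.07), and CDT1 had 83.7 and 89.0 CPM, against 44.4 and 40.6 CPM with DMSO (0.97 ± 0.12). MCM5 (-0.61 ± 0.12), MCM6 (-0.69 ± 0.13) and MCM7 (-0.72 ± 0.09) fell at 24 h in the combination as well, and within a library there were 30.9 and 27.6 MCM6 reads per 100 MCM2 reads, against 65.1 and 65.0 with DMSO.

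Without the replicate block, the direct test of combination against MMS called no member in edgeR at either time. Some members passed the test against DMSO with the combination and not with MMS alone. At 8 h these were ORC1 (log2 change 0.43 ± 0.14), MCM2 (0.41 ± 0.13), CDC7 (0.38 ± 0.13), GINS2 (0.35 ± 0.11) and TK1 (0.36 ± 0.11), and at 24 h DBF4 (-0.30 ± 0.10) and POLA1 (-0.50 ± 0.17). Each of these 7 calls was lost when some of the 4 libraries were left out in turn. For ORC1 and CDC7 that held for any of them (highest edgeR adjusted p = 0.191 and 0.282). MCM2 was lost without combination replicate 1, DMSO replicate 1 or DMSO replicate 2 (highest 0.315), and GINS2 and TK1 without combination replicate 1 or DMSO replicate 2 (highest 0.265 and 0.412). DBF4 was lost in all but the fit without DMSO replicate 2 (highest 0.164), and POLA1 without combination replicate 2 or DMSO replicate 1 (highest 0.343). UHRF1 fell with the combination at 8 h (-0.44 ± 0.10, edgeR adjusted p = 0.0059), ORC2 fell too (-0.46 ± 0.13, a call lost whichever of the 4 libraries was left out, highest adjusted p = 0.122), and E2F7, which rose with MMS alone, was not called (0.22 ± 0.13).

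The effect of the combination at 24 h minus that at 8 h was called for 9 members, 4 higher and 5 lower, against 10.8% of all genes, and for 19 with the replicate block, against 28.8%. ORC2 had the largest positive difference (1.08 ± 0.18, edgeR adjusted p = 0.00425). MCM6 (-1.04 ± 0.18, adjusted p = 0.00479) and MCM5 (-0.845 ± 0.16, adjusted p = 0.00825) were lower. ORC2 stood at 27.7 and 26.0 CPM with the combination at 8 h, against 37.3 and 36.0 CPM with DMSO, and at 51.4 and 48.0 CPM with the combination at 24 h, against 35.3 and 27.0 CPM with DMSO. MCM6 stood at 155 and 151 CPM with the combination at 8 h, against 121 and 118 CPM with DMSO, and at 69.2 and 54.0 CPM with the combination at 24 h, against 104 and 87.9 CPM with DMSO. MCM5 stood at 133 and 110 CPM with the combination at 8 h, against 108 and 96.5 CPM with DMSO, and at 68.7 and 59.6 CPM at 24 h, against 95.3 and 94.2 CPM with DMSO. Both MCM genes lay above DMSO at 8 h and below it at 24 h, though the 8 h values passed the test only in the fit with the replicate block. The call of MCM5 was lost without combination replicate 2 of 24 h (adjusted p = 0.0532), and those of ORC2, MCM6 and UHRF1 (0.64 ± 0.14) were kept whichever of the 8 libraries was left out. The 9 calls became 4 without DMSO replicate 1, 5 without combination replicate 1 and 5 without DMSO replicate 2 of 8 h. Without 1 library of 24 h they became 4 (combination replicate 1), 4 (DMSO replicate 2) and 3 (combination replicate 2).

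The combination was also set directly against MMS. That difference holds the effect of sorafenib itself together with any change in the MMS response. Only the interaction, given below, tests the latter. At 8 h no member was called in edgeR, against 0.624% of all genes. An unadjusted p under 0.05 was held by 17 members, against 13.77% of all genes. DESeq2 called 3 members, among 323 of all genes. The number of edgeR calls depended on which library was left out, among the members and over all genes alike. The fit with replicate block called 14 members, 10 higher and 4 lower with the combination, against 9.51% of all genes. RRM2 had 667 and 696 CPM with the combination at 8 h, against 856 and 831 CPM with MMS (log2 change -0.35 ± 0.08, edgeR adjusted p = 0.082, or 0.00429 with the replicate block). E2F7 had 226 and 301 CPM with the combination, against 334 and 394 CPM with MMS (-0.51 ± 0.13, adjusted p = 0.00141 with the block). MCM3 had 451 and 470 CPM with the combination, against 371 and 364 CPM with MMS (0.28 ± 0.07, adjusted p = 0.0109 with the block). These 3 had the smallest p of the members here, and none passed the threshold without the block. The other blocked calls were ORC1, MCM5, MCM6, GINS2, RFC4, LIG1, TK1, E2F1 and E2F2 higher with the combination (0.28 to 0.69) and CCNE1 and E2F3 lower (-0.38 and -0.27).

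At 24 h combination and MMS differed in no member by edgeR (0.122% of all genes called). An unadjusted p under 0.05 was held by 5 members, against 4.94% of all genes. DESeq2 called 0 members and 86 of all genes. CCNE1 had the smallest p, at 15.6 and 15.5 CPM with the combination against 19.6 and 21.6 CPM with MMS (log2 change -0.41 ± 0.11, edgeR adjusted p = 0.406). MCM3 had 502 and 467 CPM with the combination, against 430 and 434 CPM with MMS (0.17 ± 0.07), and RRM2 had 628 and 701 CPM, against 763 and 746 CPM (-0.18 ± 0.08).

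The interaction, which tests whether the MMS effect itself differed between sorafenib-treated and DMSO cells, called 0 members in edgeR at 8 h or at 24 h, against 0% of all genes at each time. No member had an unadjusted p under 0.05 there, against 3.62% of all genes at 8 h and 2.18% at 24 h. DESeq2 called 0 members and 1 of all genes at each time. The interaction terms ranged over the members between -0.22 and 0.63 on the log2 scale at 8 h and between -0.30 and 0.17 at 24 h. ORC6 had the smallest p at 8 h (-0.22 ± 0.13), with 84.4 and 80.6 CPM in combination, 88.0 and 86.2 CPM in MMS, 41.2 and 37.6 CPM in sorafenib, and 36.8 and 38.0 CPM in DMSO libraries. E2F2 (0.63 ± 0.37) had 6.14 and 6.94 CPM in combination, 2.76 and 5.15 CPM in MMS, 7.005 and 9.79 CPM in sorafenib, and 7.45 and 8.77 CPM in DMSO libraries. For UHRF1 (0.21 ± 0.14) they were 51.6 and 59.4 CPM, 42.8 and 46.4 CPM, 75.6 and 78.5 CPM, and 76.1 and 73.6 CPM in the same order of groups. For ORC6 and UHRF1 all 4 libraries that received MMS lay on one side of the 4 that did not. At 24 h the 3 smallest p-values belonged to GINS2 (-0.30 ± 0.16), GINS1 (-0.26 ± 0.16) and DBF4 (-0.20 ± 0.13). GINS2 had 35.1 and 32.3 CPM in combination, 36.2 and 35.5 CPM in MMS, 35.0 and 34.2 CPM in sorafenib, and 31.7 and 27.7 CPM in DMSO libraries. GINS1 had 64.8 and 57.7 CPM in combination, 63.6 and 63.0 CPM in MMS, 65.8 and 60.5 CPM in sorafenib, and 60.8 and 47.4 CPM in DMSO libraries. DBF4 had 29.1 and 30.2 CPM in combination, 33.3 and 32.1 CPM in MMS, 36.6 and 37.8 CPM in sorafenib, and 36.9 and 33.9 CPM in DMSO libraries. For GINS2 combination and sorafenib overlapped, with MMS above them and DMSO below. For GINS1 the MMS values lay within the ranges of combination and sorafenib. For DBF4 sorafenib and DMSO overlapped, with MMS below them and combination lowest.

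Sorafenib alone moved no replication gene past the threshold. At 8 h edgeR called 0 members, against 0.394% of all genes. An unadjusted p under 0.05 was held by 5 members, against 7.6% of all genes. DESeq2 called 0 members and 172 of all genes. RRM2 had 376 and 410 CPM with sorafenib, against 457 and 470 CPM with DMSO (log2 change -0.22 ± 0.08). CCNE1 had 13.8 and 14.2 CPM, against 16.8 and 18.0 CPM with DMSO (-0.30 ± 0.11), and TK1 had 200 and 194 CPM, against 175 and 150 CPM with DMSO (0.29 ± 0.11). These were the 3 smallest p-values of the members. The replicate block added 1 call, E2F7 lower (-0.33 ± 0.13 without the block, adjusted p = 0.0448 with it), against 5.03% of all genes.

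At 24 h the pattern with sorafenib was again 0 members in edgeR, against 0.817% of all genes. An unadjusted p under 0.05 was held by 2 members, against 9.03% of all genes. DESeq2 called 0 members and 290 of all genes. CCNE1 had 9.64 and 11.6 CPM with sorafenib, against 15.2 and 14.2 CPM with DMSO (log2 change -0.49 ± 0.11, edgeR adjusted p = 0.083). It was the 1 member called with the replicate block (adjusted p = 0.0111), where 7.18% of all genes were called. RRM2 had 289 and 323 CPM with sorafenib at 24 h, against 362 and 350 CPM with DMSO (-0.23 ± 0.08), and E2F7 had 148 and 161 CPM, against 196 and 180 CPM with DMSO (-0.29 ± 0.14). The sorafenib effect at 24 h minus that at 8 h was called for 0 members, against 0% of all genes. No member had an unadjusted p under 0.05, against 1.08% of all genes, and DESeq2 called 0 of all genes. CDC6 had the smallest p there (-0.18 ± 0.10), at 225 and 218 CPM with sorafenib at 8 h, against 200 and 202 CPM with DMSO, and at 168 and 176 CPM with sorafenib at 24 h, against 179 and 170 CPM with DMSO. CCNE1 (-0.19 ± 0.16) and GMNN (-0.15 ± 0.13) followed. GMNN had 126 and 135 CPM with sorafenib at 8 h, against 111 and 121 CPM with DMSO, and 116 and 130 CPM at 24 h, against 116 and 122 CPM with DMSO. The changes of the 55 members ranged between -0.33 and 0.29 at 8 h and between -0.49 and 0.22 at 24 h.

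Time in culture was read from DMSO cells at 24 h against 8 h. RRM2 had 362 and 350 CPM at 24 h, against 457 and 470 CPM at 8 h (log2 change -0.41 ± 0.08, edgeR adjusted p = 0.0466), and it was the 1 member called, against 0.66% of all genes. That call was lost whichever of the 4 DMSO libraries was left out (-0.44 to -0.38, highest adjusted p = 0.238). CCNE2 (-0.51 ± 0.12) had 58.8 and 53.3 CPM at 24 h, against 69.2 and 88.0 CPM at 8 h, and CDC6 (-0.23 ± 0.07) had 179 and 170 CPM, against 200 and 202 CPM. With the replicate block 8 members were called, all lower at 24 h, against 13.6% of all genes: RRM2, CCNE2, CDC6, MCM2, MCM6, MCM10, ORC5 and E2F3. Over all 55 members 11 had a positive log2 change, and the median was -0.14, against 0.008 over all genes. The same 24 h DMSO libraries were the baseline of the 24 h comparisons.

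Levels of different genes were set side by side per kilobase of exon, counting every annotated exonic base of a gene once. That length can exceed the length of the RNA made, so the order of genes is approximate. It was 7338 bases for MCM5 and 4118 bases for MCM6, whose mean levels in DMSO at 8 h were 102.5 and 119.6 CPM. In DMSO at 8 h the members with the most reads per kilobase were MCM3 (118 and 119 CPM per kilobase), PCNA (117 and 119) and FEN1 (94.6 and 84.5), followed by RRM1, TK1 and RRM2 with means of 87.9, 87.3 and 87.1. MCM3 and PCNA did not differ beyond their spread, nor did RRM1, TK1 and RRM2. At the other end were GINS3 (4.93 and 5.03) and E2F2 (1.37 and 1.61). Among the MCM2-7 genes the means per kilobase in DMSO at 8 h ran from 119 for MCM3 through 82.0 for MCM7, 40.3 for MCM4, 34.6 for MCM2 and 29.1 for MCM6 to 14.0 for MCM5.

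Other genes of the same pathways were counted beside the members. Of 49 further replication genes, 8 were higher and 1 lower with MMS at 8 h and 18 higher and 2 lower at 24 h. That is 18.4% at 8 h, below the 26.5% of all genes, and 40.8% at 24 h, against 31.5% of all genes. The combination gave 7 higher and 2 lower at 8 h (18.4%, against 24.3% of all genes) and 20 higher and 3 lower at 24 h (46.9%, against 33.4%). With the replicate block the MMS counts were 14 higher and 5 lower at 8 h and 27 higher and 3 lower at 24 h, and the combination at 8 h gave 16 higher and 4 lower. Under the block 43.3% of all genes were called with MMS at 8 h, 48.3% with MMS at 24 h and 39.5% with the combination at 8 h. The topoisomerase TOP3A rose at both times (log2 change 0.89 ± 0.10 at 8 h and 0.81 ± 0.10 at 24 h with MMS). The checkpoint mediator CLSPN (0.86 ± 0.14), the histone chaperone subunit CHAF1A (0.60 ± 0.075) and the polymerase epsilon subunit POLE3 (0.68 ± 0.11) were higher with MMS at 24 h. Of 29 E2F and RB regulators, 8 were higher and 6 lower with MMS at 8 h and 7 higher and 4 lower at 24 h, or 48.3% against 26.5% of all genes at 8 h and 37.9% against 31.5% at 24 h. With the replicate block 13 were higher and 7 lower at 24 h, where the block called 48.3% of all genes. Cyclin D1 (CCND1, -1.28 ± 0.09), cyclin A2 (CCNA2, -0.865 ± 0.10) and the kinase inhibitors CDKN1B (-0.95 ± 0.09) and CDKN2C (-1.36 ± 0.13) fell with MMS at 8 h. At 24 h the phosphatase CDC25A (0.95 ± 0.16) and the DREAM subunit LIN9 (0.60 ± 0.11) were higher, while CDKN1B (-0.70 ± 0.09) and CDKN2C (-0.74 ± 0.13) were still lower.

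Genes of late G2 and mitosis moved the other way from most called members. Of 24, 17 were lower and 0 higher with MMS at 8 h, where 12% of all genes were lower, and 15 lower and 0 higher at 24 h, where 16.3% were lower. The combination gave 19 lower and 0 higher at 8 h (11.8% of all genes lower) and 14 lower and 1 higher at 24 h (17.2% lower). At 8 h the summed level of the 24 genes was 4138 and 4176 CPM with MMS, against 6539 and 6009 CPM with DMSO, and at 24 h 4636 and 5222 CPM with MMS, against 6606 and 6267 CPM with DMSO. TOP2A, the topoisomerase of mitotic chromosomes (log2 change -1.55 ± 0.13 at 8 h), and the mitotic kinase PLK1 (-1.24 ± 0.12 at 8 h and -0.97 ± 0.12 at 24 h) fell with MMS. The summed level of the 55 members was 7004 and 6828 CPM with MMS at 8 h, against 6410 and 6223 CPM with DMSO, and 7418 and 7326 CPM with MMS at 24 h, against 6115 and 5644 CPM with DMSO. The part of the cell cycle distribution in these changes was not tested.

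Promoter letters were set beside the calls as a description, by exact match alone. Only the 47 members with a promoter entry enter the counts. MCM5, lower with MMS at 24 h, and CCNE2, MCM4, POLD3 and RPA2, higher there, are thus left out. Of the 22 members with an E2F site match, 6 were higher and 4 lower with MMS at 24 h, and of the 25 without one, 16 were higher and 0 lower, against 15.2% of all genes higher and 16.3% lower. The combination at 24 h gave 6 higher and 4 lower with a match and 12 higher and 1 lower without. Over all genes 16.2% were higher and 17.2% lower in that comparison. The 4 genes with a match that were lower with MMS at 24 h were MCM6, MCM7, LIG1 and E2F2. With MMS at 8 h the counts were 3 higher and 4 lower with a match, and 4 higher and 2 lower without. Over all genes 14.5% were higher and 12% lower there. With the combination at 8 h the counts were 5 higher and 2 lower with a match, and 6 higher and 1 lower without. Over all genes 12.5% were higher and 11.8% lower in that case. The CHR letters were in 12 of 19 promoters of the mitosis genes and in 3 of 47 of the members.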

How the data were processed

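Gene counts of the 16 libraries were used as deposited. Per the submitters' processing notes, the authors used CASAVA 1.8.2 for base calling, TopHat2 2.0.8b for alignment (build hg19) and HTSeq to make these counts; the annotation, strand setting and counting mode are not given in the sources used here. The 5 rows that name no gene stayed out of library sizes and tests: reads in no gene came to 6.88 to 7.94%, ambiguous reads to 1.03 to 1.18% and reads with several alignments to 29.5 to 31.5%.

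CPM values were counts scaled to the gene total of each library. Tests ran over 13948 genes (filterByExpr) in edgeR 4.0.16 under R 4.3.3, with TMM factors, 1 mean per group, 8 residual degrees of freedom, the quasi-likelihood test and a Benjamini-Hochberg adjusted p under 0.05; every adjusted p in the text comes from this tool unless another is named. SEs were taken from the fitted change and its F statistic. Alternatives were RLE factors, library totals, DESeq2 1.42.0, no low-count filter, a mean count of at least 50, only the groups compared, each library left out (the lone library then being assumed to vary like the other groups), and the title start as a replicate block.

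Titles begin in 2 ways, once per group. Deviations from group means correlated at 0.492 to 0.679 over 28 pairs of groups with the same title start (median 0.615), principal component 2 separated the title starts, and the libraries of a group differed by 14.4 to 20.1 chi-square units per degree of freedom. The title start was therefore taken to mark the experiment.

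Members and lists were chosen with earlier results of these data known. Library values are given for the 3 members of each role with the smallest p in MMS against DMSO at either time, the 3 smallest in each other comparison, and members whose effect differed between times; some others were added after their values were seen. Of other lists, up to 4 members with the smallest p are named. Promoters came from RefSeq tables (GRCh38.p14) and exon lengths from GENCODE v29, a later build than that of the counts.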

Additional observations from a re-analysis of the deposited data

Results flagged for a closer look

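The effect of MMS against DMSO differed between 24 h and 8 h for 9 members in the edgeR fit, by a test of the difference itself. On the log2 scale the difference (24 h minus 8 h) was 0.865 for ORC1, 0.959 for ORC2, 0.538 for ORC5, 0.691 for PRIM1, 0.633 for PRIM2 and 0.906 for UHRF1. It was negative for ORC6 (-0.574), MCM6 (-0.859) and E2F7 (-0.747).

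The effect of the combination against DMSO differed between the times for 9 members by the same test. The difference was 1.083 for ORC2, 0.692 for MCM10, 0.438 for PRIM2 and 0.638 for UHRF1. It was negative for ORC6 (-0.492), MCM5 (-0.845), MCM6 (-1.036), MCM7 (-0.436) and E2F2 (-1.397). The MCM7 and E2F2 calls were lost whichever of the 8 libraries was left out, with the highest edgeR adjusted p at 0.145 and 0.121. MCM10 and ORC6 were lost in 7 of the 8 fits (highest 0.131 and 0.141) and PRIM2 in 6 (highest 0.112). Both sets of effects were measured against the same DMSO libraries, so ORC2, ORC6, MCM6, PRIM2 and UHRF1 on both are not independent.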

How the results depend on the processing

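Over 109 calls of members in the 14 comparisons, none changed sign under any alternative tried. DESeq2 kept 107, RLE factors 104, library totals 104, a mean count of at least 50 kept 107, no low-count filter 99, the replicate block 109, and fitting only the groups compared 72. Leaving out single libraries kept 341 of 508.

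With the replicate block, that is with pairing by experiment, the numbers of members called were 1 for sorafenib at 8 h and 1 at 24 h (against 0), 26 for the combination at 8 h (against 16), 14 for combination against MMS at 8 h (against 0), 19 for the MMS effect and 19 for the combination effect between times (against 9 each), and 8 for DMSO over time (against 1). It changed no other count of members by more than 1.5 times. Fitting only the groups compared gave 7 for the combination at 8 h, 20 for MMS at 24 h (against 31), 5 and 3 for the MMS and combination effects, and 0 for DMSO over time. Combination against MMS at 8 h gave 1 with library totals and 3 with DESeq2; DMSO over time gave 0 with library totals, 2 with DESeq2 and 2 with no low-count filter. The cause of these shifts was not tested.

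With single libraries left out, the counts ran from 10 to 11 for MMS at 8 h, 7 to 13 for the combination at 8 h, 0 to 4 for combination against MMS at 8 h, 18 to 28 for MMS at 24 h, 23 to 28 for the combination at 24 h, 3 to 8 for the MMS effect and 3 to 8 for the combination effect. DMSO over time gave 0 throughout, as did sorafenib, the interactions and combination against MMS at 24 h.

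Over all genes, the block called 6036 against 3694 for MMS at 8 h, 6730 against 4394 at 24 h, 5514 against 3389 for the combination at 8 h, 7044 against 4663 at 24 h, 702 against 55 and 1001 against 114 for sorafenib, 1326 against 87 and 283 against 17 for combination against MMS, 7 and 4 against 0 for the interactions, 3561 against 1273 and 4016 against 1507 for the MMS and combination effects, and 1902 against 92 for DMSO over time. DESeq2 called 172 and 290 genes for sorafenib, 323 and 86 for combination against MMS, 1 for each interaction and 489 for DMSO over time. Fitting only the groups compared called 4 and 5 for sorafenib, 1948 for the combination at 8 h, 2714 for MMS at 24 h, 29 and 5 for combination against MMS, 776 and 441 for the effects and 0 for DMSO over time. With no low-count filter there were 101 for sorafenib at 8 h, 139 and 43 for combination against MMS and 1 for the interaction at 24 h, which also had 1 with library totals. A mean count of at least 50 gave 166 for DMSO over time. With library totals the share of calls that were higher was 49.4% in place of 35.6% for combination against MMS at 8 h, 60.0% in place of 38.6% for the MMS effect and 53.7% in place of 41.5% for the combination effect. Over the 14 comparisons and 3 scalings the median log2 change of all genes lay between -0.042 and 0.075.

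E2F2 had the fewest reads of the members, 39 to 211 per library, and an SE of 0.27 with MMS at 8 h.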
